A study of Mus musculus with 6 samples.

Results

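Fibrillar collagens and the matrix genes usually made with them by meningeal fibroblasts were followed through bulk-seq of the newborn mouse spinal cord. The 10 genes are Col1a1, Col1a2, Col3a1, Col5a1, Col6a1, Dcn, Lum, Emilin1, Fn1 and Postn, out of 25576 genes listed in at least 1 library. They were chosen on the graded spread of their values among the SMA libraries, so that spread is a description and not a test, and the comparisons with controls below reuse the same SMA values. All 10 were listed in all 6 libraries and passed the minimum mean of 0.5 FPKM used for testing, as did 17088 genes in all.

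The study examined how gene expression in the spinal cord differs between SMA and control mice at postnatal day 4 (P4). Spinal muscular atrophy (SMA) follows from loss of the survival motor neuron protein. The 3 SMA libraries are labelled mSmn-/-, hSMN22tg/0 and the 3 control libraries mSmn+/-, hSMN22tg/0, all FVB. Both groups therefore carry the human SMN2 transgene, and the controls are heterozygous for the Smn knockout rather than wild type. The methods describe the bulk-seq as triplicates with n = 1 per group, and nothing in the labels says that the libraries came from separate animals. The p-values below then measure only the spread between libraries, which may be technical in part. Replicate numbers are names with no order of their own. For the single-cell preparation the methods say that cords were stripped by an established procedure, without naming meninges or nerve roots. Neither the labels nor the methods say whether meninges or nerve roots were removed from the cords used for bulk-seq.

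Type I collagen is a triple helix of Col1a1 and Col1a2 chains, and type III collagen is a helix of Col3a1 chains; both assemble into fibrils that type V collagen helps to nucleate. In the central nervous system these fibrils lie mainly in the meninges, around larger vessels and in the sheaths of nerve roots, and fibroblasts are their main source. Small proteoglycans and glycoproteins bind the fibrils and set their thickness and their attachment to cells.

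Values are FPKM, fragments scaled to transcript length and library size, so levels of different genes can be set side by side. Relative to SMA 1, the depth estimated from the lowest values was 1.15, 1.09 and 1.05 in controls 1 to 3 and 1.01 in both SMA 2 and SMA 3. Depth in reads is unknown. Control 2 stood apart from the rest: its log2(FPKM + 1) correlated at 0.836 to 0.849 with the other libraries over the genes tested, against 0.983 to 0.992 among the other 5. A list of 30 hepatocyte genes summed to 33049 FPKM there, against 65.6 to 133 FPKM elsewhere, led by the plasma protein gene Alb. The fold changes of the 10 genes and the counts of genes called are therefore also given without control 2. Smn1, the targeted gene, was at 10.4, 8.64 and 11.9 FPKM in the controls and at 8.48, 9.30 and 11.1 FPKM in the SMA libraries. These ranges overlapped, and limma put the difference at -0.09 on the log2 scale with a standard error of 0.15 and an adjusted p of 0.819. The genotype labels therefore have no check in these values.

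SMA 3 also stood apart in genes of the sex chromosomes. Xist, which coats the inactive X chromosome, was at 146 FPKM in SMA 3 and 101 FPKM in control 2, and between 0.0857 and 0.241 FPKM in the other 4 libraries. The Y-linked gene Eif2s3y was at 0.0325 FPKM in SMA 3, at 10.1 FPKM in control 2 and between 31.0 and 34.2 FPKM elsewhere. Uty, Ddx3y and Kdm5d, also Y-linked, were listed in the other 5 libraries and not in SMA 3. By these values SMA 3 was not a repeat library of the RNA in SMA 1 or SMA 2, while SMA 1 and SMA 2 did not differ in this way. The library lowest for every matrix gene below thus also differed from SMA 1 and SMA 2 in these genes, and their part in the spread was not tested.

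Col1a2, a chain of type I collagen, was the most abundant of the 10 in every library except control 2. It lies on chromosome 6 (4504814 to 4541544, GRCm38) and was at 55.8, 45.8 and 59.7 FPKM in controls 1 to 3, at 67.3 FPKM in SMA 1, at 34.2 FPKM in SMA 2 and at 22.1 FPKM in SMA 3. Col1a1, the other chain (chromosome 11, 94936224 to 94953042), was at 36.1, 26.5 and 34.9 FPKM in the controls and at 38.5, 12.7 and 6.05 FPKM in SMA 1, SMA 2 and SMA 3. For both chains SMA 1 lay above every control while SMA 2 and SMA 3 lay below every control, so the groups overlapped only through SMA 1. The Col1a1 mean was 32.5 ± 5.22 FPKM in controls and 19.1 ± 17.2 FPKM in SMA libraries (SD, n = 3 each). Its log2 fold change, on the log2(FPKM + 1) scale used throughout, was -1.09 (standard error 0.58), and that of Col1a2 was -0.51 (standard error 0.37). They were -1.22 and -0.62 without control 2, -1.76 and -0.93 without SMA 1, and -0.51 and -0.15 without SMA 3. In bulk tissue, fewer cells of a type and less RNA per cell cannot be told apart.

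The pair did not keep its ratio across libraries. Col1a1 over Col1a2 in FPKM was 0.648, 0.579 and 0.584 in controls 1 to 3, 0.573 in SMA 1, 0.372 in SMA 2 and 0.274 in SMA 3. SMA 1 lay just under the lowest control, and the libraries with the least collagen had the lowest ratio. Gm43921, a gene annotated on the same strand within the Col1a2 span, was at 0.700 to 1.48 FPKM in the 6 libraries, and how fragments of both were divided is not stated.

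Col3a1, the chain of type III collagen (chromosome 1, 45311538 to 45349706), had the widest spread of the 10 among the SMA libraries. It was at 50.2, 62.0 and 38.8 FPKM in controls 1 to 3, at 53.2 FPKM in SMA 1, at 20.2 FPKM in SMA 2 and at 3.10 FPKM in SMA 3. SMA 1 lay within the control range, SMA 2 below it, and SMA 3 was 17.2-fold lower than SMA 1. Controls 1 and 3 differed from each other by 1.29-fold. Means were 50.3 ± 11.6 FPKM in controls and 25.5 ± 25.5 FPKM in SMA libraries (SD, n = 3 each), and the log2 fold change was -1.59 (standard error 0.86). It was -1.43 without control 2, -2.44 without SMA 1 and -0.57 without SMA 3. Col3a1 was the second most abundant of the 10 in every library except SMA 3, where Col1a2, Fn1, Col1a1 and Col6a1 exceeded it. Gm47302, annotated within its span, was listed in no library. Col3a1 over Col1a2 was 0.791 in SMA 1, 0.590 in SMA 2 and 0.140 in SMA 3, with controls between 0.650 and 1.35.

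Col5a1, whose chain starts fibril assembly (chromosome 2, 27886425 to 28039514), was at 3.89, 6.40 and 3.89 FPKM in controls and at 5.12, 2.63 and 2.21 FPKM in SMA 1, SMA 2 and SMA 3. Col6a1, a chain of the beaded microfibrils that tie cells to fibrils (chromosome 10, 76708792 to 76726168), was at 5.36, 6.41 and 7.52 FPKM in controls and at 7.78, 4.76 and 3.17 FPKM in the SMA libraries. Both kept the order of the other collagens with a narrower spread, 2.32-fold and 2.45-fold between SMA 1 and SMA 3. Their log2 fold changes were -0.44 and -0.31, and -0.24 and -0.31 without control 2. Without SMA 1 they were -0.72 and -0.59, without SMA 3 they were -0.25 and -0.05, and without control 3 that of Col6a1 was -0.21. The ratio to a partner chain stayed within the control range for both. Col6a1 over Col6a2 lay between 1.22 and 1.44 in the SMA libraries and between 1.11 and 1.82 in controls, and Col5a1 over Col5a2 lay between 0.580 and 0.641 in the SMA libraries and between 0.526 and 0.738 in controls.

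**Figure D1:**
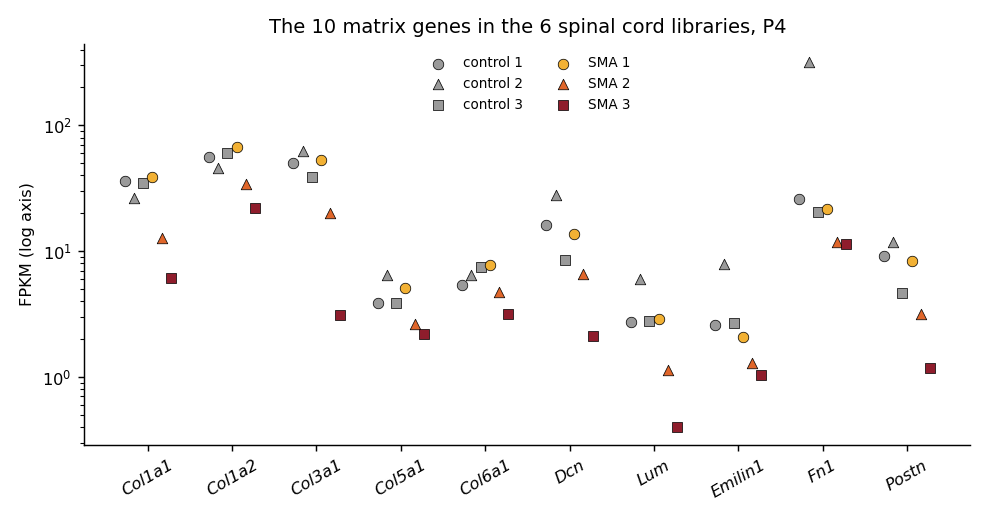
FPKM of the 10 matrix genes in each library on a log axis, with controls in grey and SMA libraries in color. SMA 3 is the lowest library for all 10 genes and SMA 2 the next lowest, while SMA 1 lies among or near the controls.

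The collagen chains share a repeat that the choice of genes did not use. Of the coding exons of Col1a1, 21 of 51 were exactly 54 bases long, as were 24 of 52 in Col1a2, 24 of 51 in Col3a1, 29 of 66 in Col5a1 and 3 of 35 in Col6a1, against 0.674% of 197531 coding exons of 21924 protein-coding genes in GENCODE M21. The other 5 members had none. The triple helix is built from repeats of glycine followed by a pair of other residues. To let the fibrillar chains be compared, the first 54-base exon with a glycine codon (GGN) every 3 codons is shown for each, with those 6 codons in capitals: Col1a1 coding exon 8 at chr11:94939904-94939957, Col1a2 coding exon 8 at chr6:4515481-4515534, Col3a1 coding exon 6 at chr1:45325360-45325413 and Col5a1 coding exon 15 at chr2:27965251-27965304, all on the plus strand of GRCm38.
Col1a1: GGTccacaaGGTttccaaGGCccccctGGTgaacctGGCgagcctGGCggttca
Col1a2: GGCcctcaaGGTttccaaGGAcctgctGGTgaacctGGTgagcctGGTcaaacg
Col3a1: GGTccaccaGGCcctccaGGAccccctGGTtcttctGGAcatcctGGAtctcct
Col5a1: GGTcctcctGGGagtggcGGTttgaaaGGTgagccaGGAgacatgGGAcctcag

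Decorin (Dcn) and lumican (Lum) are small leucine-rich proteoglycans that bind collagen fibrils and limit their width. Dcn was at 16.1, 27.8 and 8.49 FPKM in controls and at 13.6, 6.53 and 2.10 FPKM in SMA 1, SMA 2 and SMA 3. Lum was at 2.70, 6.03 and 2.77 FPKM in controls and at 2.89, 1.14 and 0.400 FPKM in the SMA libraries. For both genes SMA 1 lay within the control range and the other SMA libraries below it. SMA 3 was 6.48-fold below SMA 1 for Dcn and 7.21-fold for Lum. Control 2 was the highest library for both, and for Dcn controls 1 and 3 differed by 1.90-fold. The log2 fold change was -1.26 (standard error 0.62) for Dcn and -1.03 (standard error 0.42) for Lum, and without control 2 these became -0.87 and -0.72. Without SMA 3 they were -0.67 and -0.68.

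Dcn and Lum are also the only pair of the 10 within 1 Mb of each other. Dcn spans 97479609 to 97518143 and Lum 97565128 to 97572703 on chromosome 10, on the same strand with 46984 bases and no annotated gene between them. Lum over Dcn in FPKM was 0.212 in SMA 1, 0.174 in SMA 2 and 0.190 in SMA 3, within the 0.168 to 0.326 of the controls. Their ratio was thus level where that of the type I collagen chains was not.

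Periostin (Postn), a secreted protein that links collagen to the cell surface and to crosslinking enzymes (chromosome 3, 54361109 to 54391037), was at 9.21, 11.9 and 4.62 FPKM in controls and at 8.31, 3.16 and 1.17 FPKM in SMA 1, SMA 2 and SMA 3. Emilin1, an elastic fibre glycoprotein (chromosome 5, 30913402 to 30921277), was at 2.57, 7.85 and 2.66 FPKM in controls and at 2.06, 1.29 and 1.03 FPKM in the SMA libraries. Emilin1 was the only gene of the 10 with every SMA library below every control, a pattern shared by 1140 of 17088 genes tested (6.67%); the exact two-sided permutation p was 0.1, the smallest that 3 libraries against 3 allow. Postn in SMA 1 lay within the control range, and SMA 3 was 7.08-fold lower. The log2 fold change was -1.05 for Postn and -1.01 for Emilin1, and -0.79 and -0.57 without control 2. For Postn it was -1.59 without SMA 1 and -0.54 without SMA 3.

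Fibronectin (Fn1), the glycoprotein on which collagen fibrils are first laid down, also circulates in plasma and is made in large amounts by hepatocytes. It was at 25.7 and 20.3 FPKM in controls 1 and 3, at 318 FPKM in control 2 and at 21.4, 11.9 and 11.3 FPKM in SMA 1, SMA 2 and SMA 3. The control 2 value moved with the hepatocyte list, whose part in it was not tested. The Fn1 log2 fold change of -1.89 (standard error 1.00) became -0.64 (standard error 0.25) without control 2. It was -2.43 without control 1 and -2.59 without control 3. SMA 2 and SMA 3 were nearly level for Fn1, and both were below every control.

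Promoter sequence was looked up because the genes moved together among the SMA libraries, the spread on which they were chosen. RefSeq (GRCm38.p6) windows matched 6 of the 10 genes: Col1a2, Col3a1, Col5a1, Col6a1, Emilin1 and Postn. The 250 bases before each start were searched on both strands for 4 motifs. Of 32851 promoters, 12.4% held TATAAA, 33.8% held CCAAT, 32.7% held GGGCGG and 6.75% held TGANTCA. The first, TATAAA, was found 117 bases before the Col3a1 start and 26 bases before 1 of the Postn starts, CCAAT 109 bases before the Col1a2 start and TGANTCA 90 bases before the Col6a1 start. GGGCGG was present at 2 places for Col1a2 and at 2 for Col5a1, 205 and 73 bases before its start, and no motif was found for Emilin1. None of the 4 motifs was common to the 6 genes. The RefSeq starts of Col1a2, Col6a1 and Emilin1 lie inside the GENCODE loci given above. Their windows overlap annotated exons, so they fall at least partly within these genes as printed. The windows of 3 genes that overlap no annotated exon and hold a motif are printed with the motif, on either strand, in capitals, for Col3a1 at chr1:45311288-45311537, Postn at chr3:54360857-54361106 and Col5a1 at chr2:27886175-27886424, all on the plus strand. A match is a description of these letters and not a binding site.
Col3a1: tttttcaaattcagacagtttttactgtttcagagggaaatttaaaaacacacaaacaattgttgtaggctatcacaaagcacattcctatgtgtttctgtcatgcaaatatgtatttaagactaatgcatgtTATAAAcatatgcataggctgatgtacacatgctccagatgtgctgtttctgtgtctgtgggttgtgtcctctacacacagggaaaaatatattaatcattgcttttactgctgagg
Postn: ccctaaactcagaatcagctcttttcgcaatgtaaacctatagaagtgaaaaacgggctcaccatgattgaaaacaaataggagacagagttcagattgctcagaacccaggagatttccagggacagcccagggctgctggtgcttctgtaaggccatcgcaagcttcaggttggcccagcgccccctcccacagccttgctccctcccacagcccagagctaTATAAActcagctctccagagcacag
Col5a1: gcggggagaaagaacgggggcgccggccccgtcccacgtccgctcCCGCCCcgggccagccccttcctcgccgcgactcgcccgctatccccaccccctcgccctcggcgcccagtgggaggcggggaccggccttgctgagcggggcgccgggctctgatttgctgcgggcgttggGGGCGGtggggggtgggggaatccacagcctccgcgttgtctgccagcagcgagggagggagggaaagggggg

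Across the 10 genes the order was the same. SMA 1 was the highest and SMA 3 the lowest SMA library for 10 of 10, an order seen in 3205 of 17088 genes tested (18.8%). A difference of at least 1 in log2(FPKM + 1) from SMA 1 to SMA 3 with SMA 2 between was seen for 7 of 10, against 79 genes of all tested (0.462%), while 9 genes had the opposite order at that size. This order chose the genes, so nothing is read from these shares. Col6a1 was just inside that size at 1.07 and Col5a1 just outside at 0.93, followed by Fn1 at 0.86 and Emilin1 at 0.59. The ratio of highest to lowest SMA library had a median of 4.71 over the 10 and 1.16 over all genes tested. Over the 3 controls the same ratio had a median of 1.94 over the 10, from 1.30 to 15.7, and 1.48 over all genes tested. Between controls 1 and 3 alone the medians were 1.17 and 1.15.

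**Figure D2:**
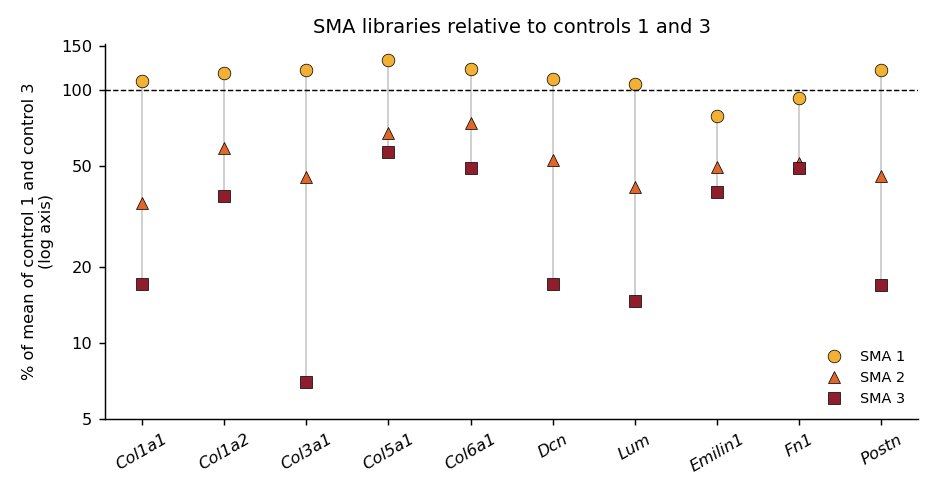
Each SMA library as a percentage of the mean of controls 1 and 3 for the 10 genes, on a log axis with a dashed line at 100. Medians over the 10 are 113.5% in SMA 1, 50.6% in SMA 2 and 27.7% in SMA 3, and Col3a1 in SMA 3 is the lowest point at 6.98%.

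Set against the mean of controls 1 and 3, the median gene of the 10 stood at 113.5% in SMA 1, 50.6% in SMA 2 and 27.7% in SMA 3. The plot of percentages shows that 8 of 10 were above that mean in SMA 1, with Emilin1 at 78.7% and Fn1 at 93.1% as the others. On the log2(FPKM + 1) scale the larger step was from SMA 1 to SMA 2 for 8 genes, and from SMA 2 to SMA 3 for Col3a1 and Dcn. As a ratio of FPKM it was from SMA 2 to SMA 3 for 4 genes, Lum and Postn being the others. The mean of log2(FPKM + 1) over the 10 was 3.76, 4.49 and 3.57 in controls 1 to 3 and 3.81, 2.87 and 2.10 in SMA 1, SMA 2 and SMA 3, while the same mean over all genes tested lay between 3.06 and 3.15 in every library. Without SMA 3 the range of the SMA means was 0.94, and without SMA 1 it was 0.76, against 1.70 with all 3.

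**Figure D3:**
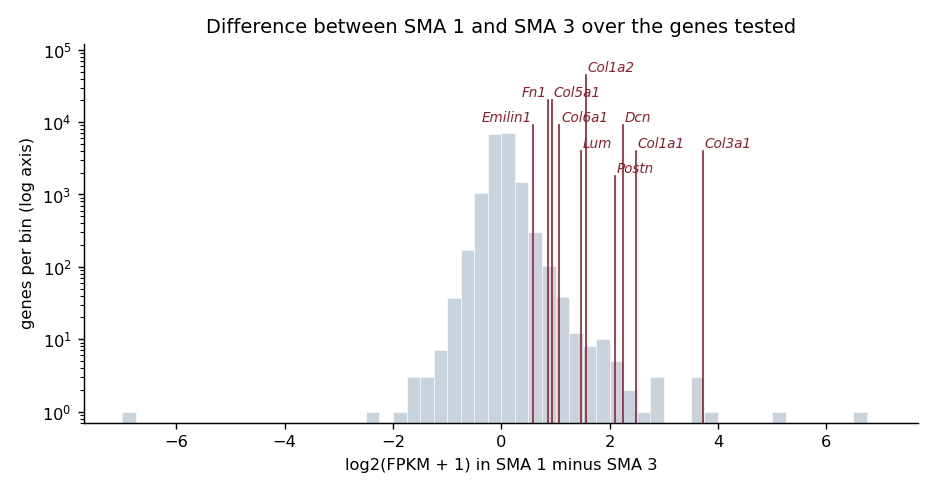
Histogram of the difference in log2(FPKM + 1) between SMA 1 and SMA 3 over the 17088 genes tested, with gene counts on a log axis and the 10 matrix genes as red lines. The median gene lies at 0.01, and the matrix genes lie between 0.59 (Emilin1) and 3.72 (Col3a1).

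Tested as SMA against control, no gene of the 17088 passed an adjusted p of 0.05 in limma (0%; smallest adjusted p = 0.683), and 990 had an unadjusted p under 0.05. Of the 10 matrix genes, 2 had an unadjusted p under 0.05, and the adjusted p-values of the 10 lay between 0.683 and 0.687. By the study's thresholds for DEGs, an unadjusted p under 0.05 and a fold over 2, 17 genes were lower in SMA (0.0995%), Lum and Emilin1 among them. Without control 2, 2 of 16574 genes passed the adjusted threshold (0.0121%) and 7 were lower by p and fold (0.0422%), none of them among the 10, while 1736 genes and 2 of the 10 had an unadjusted p under 0.05. The genes past the adjusted threshold were the non-coding RNA genes Snora74a and Rpph1, both higher in SMA and named after their values were seen. The count of genes lower by p and fold, 17 with all libraries, was 78 without control 1, 131 without control 3, 34 without SMA 1, 4 without SMA 2 and 6 without SMA 3. The count of matrix genes lower by p and fold was also 0 without SMA 2 or without SMA 3, 1 without control 1 or control 3, and 6 without SMA 1. All 10 had a log2 fold change below 0 with and without control 2. Their median was -1.04 against 0.04 over all genes tested, and -0.68 against 0.00 without control 2. Without SMA 1 the median was -1.50 and without SMA 3 it was -0.56.

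Other collagens, from a list of 19 fibrillar and associated chains, included several with the same order. SMA 1 over SMA 2 over SMA 3 held for 12 of 19. Of these, 4 differed by at least 1 on the log2 scale, namely Col5a2, Col6a2, Col6a3 and Col18a1. Over all genes tested the order held for 18.8%, and with that difference for 0.462%. These shares apply to each list count below. Col5a2, the partner of Col5a1 in type V collagen, was at 7.40, 8.68 and 5.78 FPKM in controls and at 8.14, 4.54 and 3.44 FPKM in SMA 1, SMA 2 and SMA 3. Col6a3, the third chain of type VI collagen, was at 5.55, 6.91 and 4.46 FPKM in controls and at 6.74, 3.34 and 1.82 FPKM in the SMA libraries. For both, SMA 1 lay inside the control range and SMA 2 and SMA 3 below it. Col26a1, the most abundant of the list, differed: it was at 26.9, 15.8 and 24.1 FPKM in controls and at 25.2, 24.6 and 24.9 FPKM in the SMA libraries. The list's median difference from SMA 1 to SMA 3 was 0.40 on the log2 scale, against 0.01 over all genes tested.

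Among 6 small leucine-rich proteoglycans tested, the median difference from SMA 1 to SMA 3 was 0.49 on the log2 scale, against 0.01 over all genes tested. Of the 6, 4 were fully ordered, against 18.8% of all genes tested. Osteoglycin (Ogn) was at 2.63, 1.37 and 1.99 FPKM in controls and at 2.75, 0.972 and 0.650 FPKM in SMA 1, SMA 2 and SMA 3. Biglycan (Bgn), the most abundant, was at 19.6, 28.0 and 20.2 FPKM in controls and at 21.6, 15.9 and 14.1 FPKM in the SMA libraries, a narrower spread in the same order. Among 25 elastic fibre and matricellular genes tested, that median difference was 0.50. Of the 25, 20 were fully ordered and 2 reached a log2 difference of 1, Tgfbi and Mfap4. Tgfbi, a secreted adhesion protein, was at 8.88, 15.0 and 4.80 FPKM in controls and at 7.11, 3.24 and 0.753 FPKM in SMA 1, SMA 2 and SMA 3. Sparc, an abundant collagen-binding protein, was at 122, 117 and 116 FPKM in controls and at 120, 112 and 98.3 FPKM in the SMA libraries. The spread of Sparc was small beside that of Tgfbi, although its order was the same.

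Enzymes that process collagen were ordered in 13 of 27 tested, 1 of them by at least 1 on the log2 scale. That gene was Pcolce, which enhances the removal of the carboxyl propeptide of fibrillar procollagens, at 4.72, 5.79 and 4.17 FPKM in controls and at 5.36, 2.74 and 0.731 FPKM in SMA 1, SMA 2 and SMA 3. Serpinh1, the collagen chaperone, was at 22.4, 19.5 and 19.0 FPKM in controls and at 20.6, 13.4 and 13 FPKM in the SMA libraries. For both genes SMA 2 and SMA 3 lay below every control. Ppib and Mia3, factors of protein folding and export, were the most abundant of the list, at 53.1 to 106 FPKM and 27.7 to 37.3 FPKM over the 6 libraries. Collagen and fibronectin receptors were ordered in 6 of 14 tested, matrix proteases and their inhibitors in 4 of 14, and TGF-beta ligands, receptors and targets in 6 of 13, none by a log2 difference of 1. The most abundant of these were Itgb1, Timp2 and Skil. Itgb1, the shared beta chain of collagen and fibronectin integrins, was at 47.4 to 64.3 FPKM in controls and 36.2 to 43.7 FPKM in SMA libraries, with no overlap. Every SMA library lay below every control for 1140 of 17088 genes tested (6.67%). Over the 7 lists together, 65 of 118 genes tested were ordered (55.1%), against 18.8% of all genes tested. No gene of these lists passed an adjusted p of 0.05 with or without control 2.

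Markers of meningeal and perivascular fibroblasts were taken from a list of 43 genes, all listed, that held none of the 10. Its summed level was 413, 1057 and 306 FPKM in controls 1 to 3 and 393, 260 and 275 FPKM in SMA 1, SMA 2 and SMA 3, led by Igf2. Of 39 tested, 20 were ordered as the matrix genes were, against 18.8% of all genes tested. Igf2, Slc6a13, Ogn and Serping1 were ordered by at least 1 on the log2 scale, against 0.462% of all genes tested. Slc6a13, a transporter of meningeal fibroblasts, was at 8.43, 23.2 and 3.37 FPKM in controls and at 7.42, 2.72 and 1.13 FPKM in SMA 1, SMA 2 and SMA 3. Foxc1, a transcription factor of the meninges, was at 2.99, 2.03 and 3.07 FPKM in controls and at 3.27, 1.66 and 1.34 FPKM in the SMA libraries. Both had SMA 2 and SMA 3 below every control. Ptgds, made by arachnoid cells and by glia, did not follow: it was at 78.0, 4.75 and 7.35 FPKM in controls and at 71.3, 5.31 and 55.1 FPKM in SMA 1, SMA 2 and SMA 3. In the same SMA libraries Zic1 was at 35.8, 32.9 and 36.1 FPKM and Cldn11 at 22.3, 31.6 and 29.2 FPKM. Pdgfra was at 27.0, 24.9 and 24.8 FPKM there. Zic1, Cldn11 and Pdgfra were more abundant than Slc6a13 and Foxc1. Among them only Pdgfra was ordered, by 0.12 on the log2 scale. Twist1, Slc22a6 and Slc47a1 were at 0 in at least 1 library. Every other gene of the list was above 0 in all 6. Igf2, Slc6a13 and Serping1 were highest in control 2, as was the hepatocyte list. The part of the fibroblast markers in the spread was not tested.

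Markers of Schwann cells, the glia of nerve roots, mostly had the order of the matrix genes among the SMA libraries. Relative to controls 1 and 3, the mean log2(FPKM + 1) in control 2 was -0.29 for these markers and 0.82 for the matrix genes. The matrix genes had no shared order among the controls, so these means do not set the markers apart from every matrix gene. Control 2 was the highest control for 7 matrix genes, among them Fn1 at 318 FPKM, and the lowest for Col1a1 and Col1a2. Of a list of 12 markers, all listed, 9 of 11 tested had the order of the matrix genes, 5 of them by at least 1 on the log2 scale. Over all genes tested these shares were 18.8% and 0.462%. Prx, a protein of peripheral myelin, was at 6.57, 7.47 and 13.1 FPKM in controls and at 11.5, 4.47 and 0.695 FPKM in the SMA libraries, and Pmp2 was at 3.77 FPKM in SMA 1, 2.74 FPKM in SMA 2 and not listed in SMA 3. Prx and Pmp2 were thus below 1 FPKM or not listed in SMA 3, while L1cam, which neurons also express, was at 71.2 FPKM there against 41.8 to 72.6 FPKM in controls. The part of Schwann cell genes in the spread of the matrix genes was not tested.

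**Figure D4:**
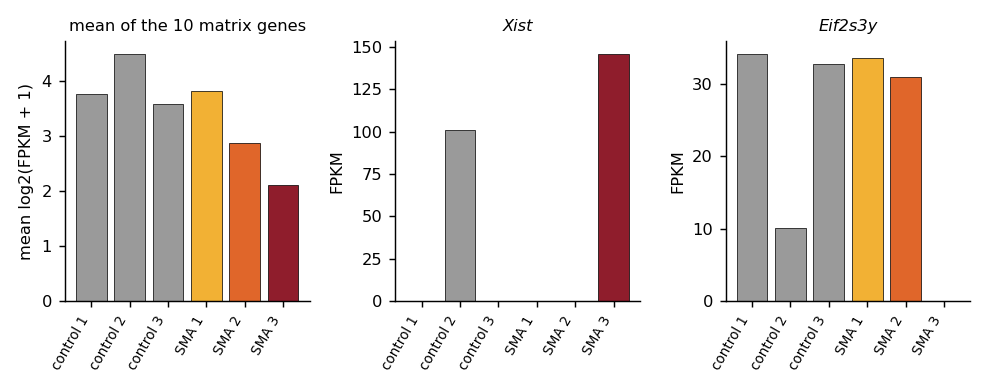
Bars give, for each library, the mean log2(FPKM + 1) of the 10 matrix genes and the FPKM of Xist and Eif2s3y. SMA 3 is lowest for the matrix genes (2.10), highest for Xist (146 FPKM) and near 0 for Eif2s3y, and control 2 is the other library with Xist above 1 FPKM.

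Markers of other tissues that could carry collagen were summed as well. On the log2 scale the median difference from SMA 1 to SMA 3 was 0.47 for tendon and 0.39 for muscle markers. It was -0.04 for cartilage and -0.11 for bone markers, against 0.01 over all genes tested. The order of the matrix genes was seen in 18.8% of all genes tested. Bone markers summed to between 2.67 and 4.09 FPKM over the 6 libraries, with Bglap2 and Mepe absent from every library, 5 more at 0 in at least 1, and none of 3 tested ordered. Cartilage markers summed to between 32.5 and 42.5 FPKM, with Col9a3 as the most abundant, Cnmd and Snorc in no library, 5 of 13 listed genes at 0 in at least 1 library and 1 of 7 tested ordered. Skeletal muscle markers summed to between 6.08 and 12.9 FPKM, led by Acta1, and tendon markers to between 4.89 and 10.3 FPKM, led by Mkx, with 1 of 7 and 1 of 3 ordered. Myog and 3 other muscle genes and the tendon marker Tnmd were at 0 in at least 1 library. The lowest sum was in control 2 for bone, cartilage and tendon and in control 3 for muscle. In SMA 1, SMA 2 and SMA 3 the muscle sum was 11.5, 12.9 and 7.58 FPKM and the tendon sum was 8.29, 8.44 and 5.0 FPKM, lowest in SMA 3, and their part in the spread was not tested.

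Among vascular cells, mural markers summed to 77.6, 426 and 92.6 FPKM in controls 1 to 3 and to 79.3, 66.7 and 64.4 FPKM in SMA 1, SMA 2 and SMA 3, led by Vtn, which hepatocytes also make and which was at 359 FPKM in control 2. Endothelial markers summed to 74.9, 113 and 93.0 FPKM in controls and to 69.9, 56.2 and 62.6 FPKM in the SMA libraries, led by Cldn5. All 3 SMA libraries were below every control for the endothelial sum, with SMA 1 close to control 1. Of single genes tested, 6.67% had every SMA library below every control. Each list had 3 genes in the order of the matrix genes, of 12 and 13 tested (25% and 23.1%), near the 18.8% of all genes tested. Cdh5, an adhesion protein of endothelial junctions, was the only one with a log2 difference over 1. The mural marker Cnn1 was at 0 in at least 1 library. Their part in the spread was not tested.

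Spinal cord neuron and glia markers, led by Mbp, summed to 1968, 1502 and 2316 FPKM in controls and to 1806, 2014 and 2000.1 FPKM in SMA 1, SMA 2 and SMA 3, and of 19 tested 1 had the order of the matrix genes and 9 the opposite order, which 2779 of all genes tested had (16.3%). Sensory neuron markers summed to between 5.09 and 13 FPKM, led by Pou4f1, and stellate cell markers to between 83.9 and 112 FPKM, led by Reln, which neurons also express, with 1 of 4 and 1 of 6 tested ordered. Mrgprd and Prdm12 of the sensory neuron list and Hand2, Colec11 and Tcf21 of the stellate list were at 0 in at least 1 library. Erythroid markers summed to 18856 FPKM in control 2 and to between 1115 and 1863 FPKM elsewhere, led by Hbb-bs, and macrophage and neutrophil markers to 518 FPKM in control 2 and to between 13.7 and 23.5 FPKM elsewhere, led by S100a8. In the macrophage and neutrophil list 7 of 13 tested shared the order of the matrix genes, against 18.8% of all genes tested. Pf4 did so by at least 1 on the log2 scale, and the list's part in the spread was not tested. Of the erythroid list, in which Ahsp was not listed, 1 of 9 tested was ordered, and of the hepatocyte list 3 of 30. Elane, Apoc3 and Tat were at 0 in at least 1 library.

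**Figure D5:**
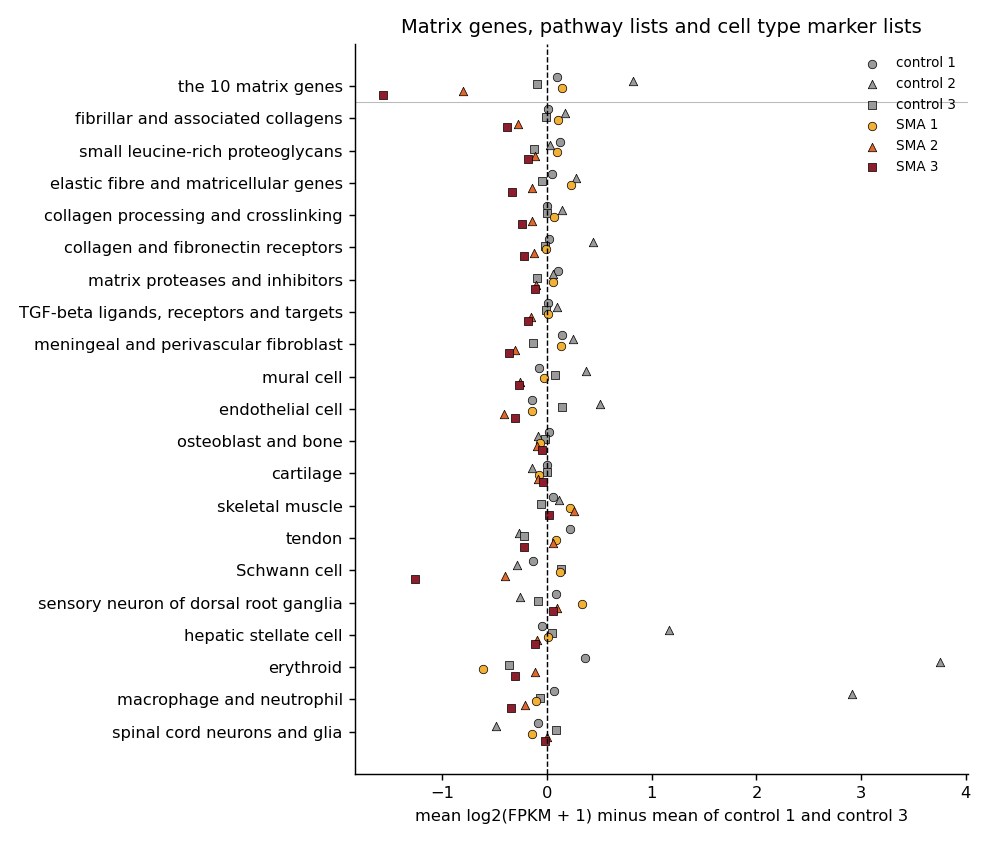
Mean log2(FPKM + 1) of the 10 matrix genes, 7 pathway lists and 13 of the 14 marker lists in each library, minus the mean of controls 1 and 3; the hepatocyte list, far off scale in control 2, is left out. SMA 3 lies farthest left for the matrix genes (-1.56) and next for Schwann cell markers (-1.26).

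The genes nearest to the mean profile of the 10 were sought among genes of at least 1 FPKM on average, by the root mean square difference of centred log2(FPKM + 1) over the 5 libraries other than control 2. They were Pcolce (0.119), Abca8a (0.156), Apod (0.170), Egfl8 (0.172), Sema3b (0.172), Lamb1 (0.184), Col6a3 (0.190), Arhgap19 (0.197), Nid2 (0.213) and Ogn (0.220), where a gene level in all 5 libraries would lie at 0.653. Lamb1 and Nid2 code for basement membrane proteins, Apod for a lipid carrier and Sema3b for a secreted guidance protein. Lamb1 was at 14.9, 16.8 and 16.3 FPKM in controls and at 21.4, 10.8 and 6.16 FPKM in SMA 1, SMA 2 and SMA 3. Over all 6 libraries Arhgap19, Pcolce and Cdh5 were nearest, and Pcolce, Sema3b, Col6a3 and Arhgap19 were among the nearest 10 in both searches. Of the 79 genes with the graded order, 25 were among the 10 matrix genes or the lists, and the other 54 included Eif2s3y and Kdm5d of the Y chromosome and Pmp22 and Cldn19 of peripheral myelin, which were named after their values were seen. Pmp22 was at 39.8, 20.4 and 4.56 FPKM in SMA 1, SMA 2 and SMA 3 and at 31.2 to 47.2 FPKM in controls.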

How the data were processed

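Bulk-seq of spinal cord from 3 SMA and 3 control libraries of P4 mice was analysed, grouped by the sample labels. The authors aligned reads of ribosomal RNA-depleted, strand-specific libraries with HISAT2 and deposited FPKM per gene from Cufflinks on mm10, per the submitters' processing notes and the study's methods; versions are not given in the sources used here. The methods describe a count test, and counts were not used here. A gene absent from a file was set to 0 FPKM. Genes averaging 0.5 FPKM or more were compared on log2(FPKM + 1), which understates changes of low genes, with limma 3.58.1 in R 4.3.3 (lmFit, eBayes with trend, two-sided, Benjamini-Hochberg over all genes tested), tested on simulated data. Depth came from the commonest ratio of values under 0.15 FPKM. The 10 genes and the gene lists were chosen with earlier results of these data known. Named are all 10 genes, genes with the highest FPKM per list, the 10 nearest profiles, Smn1 and pairs within 1 Mb; other genes, with the sex chromosome genes, were named after their values were seen. Some genes that this rule takes are not reported here. Loci come from GENCODE M21; file starts count from 0, and 6 of 10 loci were identical. Alternatives were a pseudocount of 0.1, no filter or a mean of 1 FPKM, median ratio scaling, quantile normalization, robust eBayes, the replicate block and each library left out.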

Additional observations from a re-analysis of the deposited data

How the results depend on the processing

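All 10 matrix genes kept a log2 fold change below 0 in each of the 9 alternative settings that can move it, 90 values in all. The other 3 settings, a changed or dropped filter and the block, leave a gene's fold change as it is. None of the 10 passed an adjusted p of 0.05 in these 12 settings (smallest 0.400 from limma). The order of the SMA libraries held for 10 of 10 under median ratio scaling and quantile normalization. The median log2 fold change of the 10 lay between -1.50 and -0.56 with a library left out. The range of their mean among SMA libraries lay between 0.76 and 1.70 with an SMA library left out. The number of genes past the adjusted p was between 0 and 2 with a library left out, and 0 in every other setting.

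Genes lower in SMA by p and fold numbered 125 with a pseudocount of 0.1, 11 after quantile normalization, and between 4 and 131 with a library left out, against 17. Genes higher by p and fold numbered 64 with a pseudocount of 0.1 and between 12 and 28 with a library left out, against 12. Of the 10 matrix genes, those lower by p and fold numbered 1 with no filter on low FPKM, 1 under median ratio scaling, 0 after quantile normalization and between 0 and 6 with a library left out, against 2. Over all genes in those first 3 settings, 13 of 25576 (0.0508%), 16 of 17098 (0.0936%) and 11 of 17083 (0.0644%) were lower. With a library left out the share of all genes lay between 0.0234% and 0.765%. The cause of these changes was not tested.

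With the replicate number as a block, 35 of 17088 genes were lower by p and fold (0.205%), 5 of them matrix genes. In that setting 13 were higher (0.0761%), and none passed the adjusted p. The matrix genes were chosen on their spread among the SMA libraries, so nothing is read from their count. The labels do not say whether same-numbered libraries were paired. Correlations of same-numbered deviations from the group means were -0.04, 0.02 and 0.08. SMA 3 correlated best with its own number, while SMA 1 and SMA 2 did not. Values this small cannot settle whether the numbers pair the libraries.

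Depth in reads is unknown, so the counting error of low values, such as Lum and Emilin1 in SMA 3, could not be given.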
